A study of Mus musculus with 16 samples.

Results

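The 10 genes described here encode the deep scaffold of the excitatory postsynaptic density: the Shank family (Shank1, Shank2, Shank3), the Homer family (Homer1, Homer2, Homer3) and the Dlgap family (Dlgap1, Dlgap2, Dlgap3, Dlgap4). They were chosen by gene name, and all 10 were found among the 48709 genes of the count table. Their RNA was measured in synaptosomes (SYN) from the cortex of C57BL/6 mice. Synaptosomes are resealed nerve endings that carry a piece of the postsynaptic side, enriched by fractionation. SYN libraries came from mice aged 3 weeks, others aged 5 months and others aged 19 months, and a further group of total homogenate (TH), the cortical material set aside before enrichment, came from mice aged 5 months. Each group holds 4 biological replicates, and all 16 libraries were depleted of cytosolic ribosomal RNA. Sex is not given for these mice, nor whether cortices of several animals were pooled.

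In the postsynaptic density, membrane-associated guanylate kinases such as PSD-95 (Dlg4) hold the receptors at the membrane and bind Dlgap proteins. Dlgap proteins bind the PDZ domain of Shank proteins, and Shank proteins bind Homer and actin regulators below. Homer proteins pair through a coiled coil and bind group I metabotropic glutamate receptors and the calcium release channels of the endoplasmic reticulum, while a short form of Homer1, induced by activity, lacks the coiled coil. The mRNAs of Shank1 and Dlgap3 are textbook examples of messages carried into dendrites. Gene counts do not separate the short and long forms of Homer1.

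Library totals ran from 10640232 to 21719869 counts. Levels are given in CPM, counts scaled to the library size after its adjustment by TMM, a scaling between libraries. Differences in CPM between SYN and TH therefore depend on that adjustment. In replicate 1, Homer1 took 3701 of 11627513 counts in TH and 2492 of 16719323 in 5 months SYN, but 202 and 196 CPM. Shank1 took 10115 and 29663 counts of these libraries and lay at 552 and 2328 CPM. The libraries differed in other ways too: the nuclear RNAs Malat1, Neat1 and Meg3 summed to 18600 to 22800 CPM in TH. In SYN they summed to 574 to 847 CPM at 3 weeks and 1268 to 6141 CPM at 5 months, with replicate 4 highest. At 19 months they summed to 1321 to 2081 CPM. Mitochondrial ribosomal RNA took 17.6 to 22.0% of the counts in TH, and in SYN 42.6 to 51.7% at 3 weeks, 36.1 to 45.3% at 5 months and 32.9 to 33.6% at 19 months, apart from 19 months replicate 1 at 52.3%. All 8 neuronal markers were detected in each group, 5 of them called higher and 2 lower in SYN than in TH, with a summed level of 9340 to 11230 CPM in 5 months SYN and 5310 to 5778 CPM in TH. Other cells were present as well: all 8 astrocyte and all 8 microglial markers were higher in SYN than in TH, 6 of 8 oligodendrocyte markers were higher and 0 lower, all 8 endothelial markers were lower, and within SYN the summed oligodendrocyte level fell from between 7241 and 10100 CPM at 3 weeks to between 2286 and 2833 CPM at 5 months. The median log2 fold change of SYN against TH was 0.40 for neuronal, 1.14 for astrocyte and 1.32 for microglial markers. It was 0.38 for oligodendrocyte and -3.16 for endothelial markers. In such bulk fractions, more terminals and more RNA per terminal cannot be told apart. The part of these other RNAs in the results below was not tested.

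At 5 months, the comparison of SYN with TH asks which transcripts are relatively abundant in the synaptic fraction. Of the 10 scaffold genes, 9 were higher in SYN and 0 were lower, where 24.5% of the 17374 genes tested were higher and 25.6% lower (edgeR quasi-likelihood test, Benjamini-Hochberg adjusted p under 0.05). The median log2 fold change of the 10 genes was 1.44, beside -0.05 for all genes tested. In 8 of the 10 genes no SYN library overlapped a TH library in CPM, all 8 with SYN higher, and 47.9% of all genes tested showed no overlap in either direction. The exceptions were Homer1 and Dlgap2.

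The Shank genes stood among the largest differences. Shank1 (ENSMUSG00000038738, GRCm38 chr7:44310253-44360572, plus strand), the scaffold whose PDZ domain binds Dlgap proteins, lay at 552, 575, 522 and 442 CPM in TH and at 2328, 2757, 2649 and 2135 CPM in 5 months SYN. Each SYN library was far above each TH library. The fold change was 4.75 (log2 2.25 ± 0.10 SE, edgeR adjusted p = 7.27e-10), higher than that of 99.8% of the genes tested. Shank3 (chr15:89499623-89560261, plus strand), a gene linked to autism and Phelan-McDermid syndrome, gave 129.8, 133.4, 124.5 and 109.6 CPM in TH and 518, 581, 603 and 503 CPM in SYN. Its groups did not overlap either, with a fold change of 4.47 (log2 2.16 ± 0.09, edgeR adjusted p = 3.97e-10). Shank2 (chr7:144001928-144424494, plus strand) ranged from 161 to 171 CPM in TH and from 571 to 689 CPM in SYN, a fold change of 3.96 (log2 1.99 ± 0.08, edgeR adjusted p = 3.26e-10).

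The Homer genes split. Homer1 (chr13:93303757-93404129, plus strand) lay at 202, 197, 178 and 186 CPM in TH and at 196, 176, 176 and 190.4 CPM in 5 months SYN. The groups overlapped almost fully, with a log2 fold change of -0.04 ± 0.07 (edgeR adjusted p = 0.706). Homer2 (chr7:81600481-81707527, minus strand), which shares the ligand-binding EVH1 domain with Homer1, lay at 60.7, 63.8, 58.4 and 55.7 CPM in TH and at 203, 185, 202 and 163 CPM in SYN. The lowest SYN library exceeded the highest TH library, and the fold change was 3.18 (log2 1.67 ± 0.09, edgeR adjusted p = 1.84e-09). Homer3 (chr8:70282827-70294361, plus strand) was the rarest member, at 3.65 to 4.97 CPM in TH and 6.04 to 9.54 CPM in SYN, from 88 to 119 counts in these 8 libraries. Its fold change was 1.80 (log2 0.85 ± 0.21, edgeR adjusted p = 0.00316). Exons of Ddx49 on the other strand overlap 874 bases of its exons, and since the strand setting of the counting is not given in the sources used here, reads there cannot be assigned with certainty. Genes on the other strand also overlap 525 exon bases of Homer2, 339 of Shank1, 271 of Shank3, 92 of Dlgap1 and 24 of Dlgap4.

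The Dlgap genes spread over the widest range. Dlgap3 (chr4:127169204-127237022, plus strand), also called SAPAP3 and known for compulsive grooming in mice that lack it, lay at 112, 124, 107 and 93.8 CPM in TH and at 504, 594, 599 and 495 CPM in SYN. Its fold change of 5.05 (log2 2.34 ± 0.10, edgeR adjusted p = 5.06e-10) was the largest of the 10. Dlgap4 (chr2:156613705-156764363, plus strand) rose from 118 to 161 CPM in TH to 298 to 339 CPM in SYN, a fold change of 2.32 (log2 1.22 ± 0.09, edgeR adjusted p = 8.78e-08). Dlgap1 (chr17:69969073-70821413, plus strand), the founding member also called GKAP, lay between 311 and 341 CPM in TH and between 435 and 512 CPM in SYN (log2 0.58 ± 0.07, edgeR adjusted p = 1.34e-05). Dlgap2 (chr8:14095865-14847680, plus strand) had overlapping groups, 84.7 to 117 CPM in TH against 113 to 149.7 CPM in SYN, and a log2 fold change of 0.37 ± 0.11 (edgeR adjusted p = 0.0116). Upper-quartile scaling moved the median of all genes by -0.14, and under it Dlgap2 lost its call (log2 0.22, adjusted p = 0.0840) while Homer1 was called lower (log2 -0.18, adjusted p = 0.0472); the other 8 genes stayed higher.

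**Figure D1:**
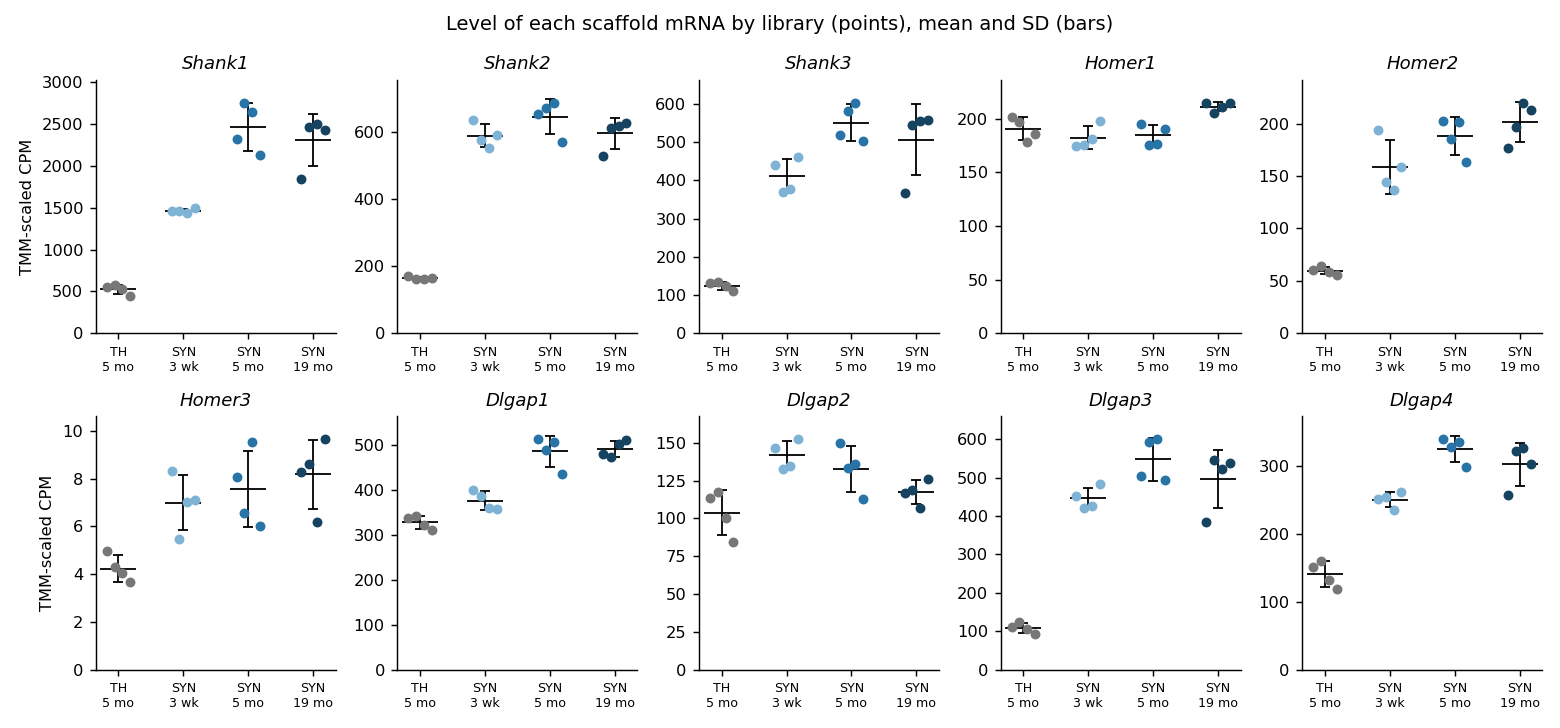
Level of each of the 10 scaffold mRNAs in TMM-scaled CPM (y axis, linear from 0) in TH at 5 months and SYN at 3 weeks, 5 months and 19 months (x axis). Points are libraries and bars the mean with its SD (n = 4 per group). Shank1 reached 2135 to 2757 CPM in 5 months SYN against 442 to 575 CPM in TH, whereas the Homer1 groups overlapped.

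Per kilobase of counted length, the order of the members also differed between fractions. The counted length comes from the annotation: 16992 bases for Dlgap1, with 20 annotated transcripts, and 4521 bases for Dlgap3, with 4. It need not be the length of the mRNA present, so the order between genes depends on it. In 5 months SYN, Shank1 was first at 235 ± 27.3 CPM per kb (mean ± SD, n = 4), then Dlgap3 at 121 ± 12.5, Shank3 at 62.0 ± 5.43 and Shank2 at 61.1 ± 4.99. Dlgap4, Dlgap1, Dlgap2, Homer1 and Homer2 followed between 38.5 and 14.9 CPM per kb, and Homer3 was last at 2.20 ± 0.46. Shank3 and Shank2 overlapped in this order, as did Dlgap2 and Homer1, while the other 7 neighbours did not. In TH, Shank1 (49.7 ± 5.54 CPM per kb) and Dlgap3 (24.2 ± 2.81) were again first and second, but Dlgap1 (19.3 ± 0.81) and Homer1 (18.2 ± 1.03) came next, ahead of Shank2 (15.5 ± 0.41) and Shank3 (14.0 ± 1.2). From Dlgap1 through Homer1, Dlgap2 and Dlgap4 to Shank2, each TH neighbour overlapped the next. Summed over all 10 genes, the level was 602 ± 53.1 CPM per kb in 5 months SYN and 180.3 ± 16.03 in TH.

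The share of each gene in its own family does not depend on the scaling between libraries, though it does depend on the counted length. These shares described the same split within families. Homer1 made up 75.5, 74.9, 74.5 and 76.3% of the Homer sum in TH and 50.3, 50.2, 47.3 and 55.3% in 5 months SYN, so that no library overlapped. Homer2 took 19.6% ± 0.74 in TH and 42.9% ± 2.45 in SYN (mean ± SD, n = 4). Dlgap3 took 31.4% ± 0.65 of the Dlgap sum in TH and 57.7% ± 2.49 in SYN, while Dlgap1 went from 25.2% ± 1.68 to 13.6% ± 0.69 and Dlgap2 from 21.9% ± 0.92 to 10.3% ± 1.01. Within the Shank family the shares of Shank1, Shank2 and Shank3 were 62.7, 19.7 and 17.7% in TH and 65.5, 17.1 and 17.4% in SYN. Each of these Homer1, Homer2, Dlgap1, Dlgap2, Dlgap3 and Shank1 differences, and that of Dlgap4 (21.6% in TH, 18.4% in SYN), reached a two-sided exact permutation p = 0.0286, the smallest that 4 against 4 libraries allow. Over the 40 share tests of all comparisons, 13 reached that p, and 0 passed 0.05 after Benjamini-Hochberg adjustment, the smallest adjusted p being 0.0879 (exact permutation tests). With counts not divided by length the Dlgap4 difference turned to 1.22 percentage points higher in SYN (exact p = 0.143).

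**Figure D2:**
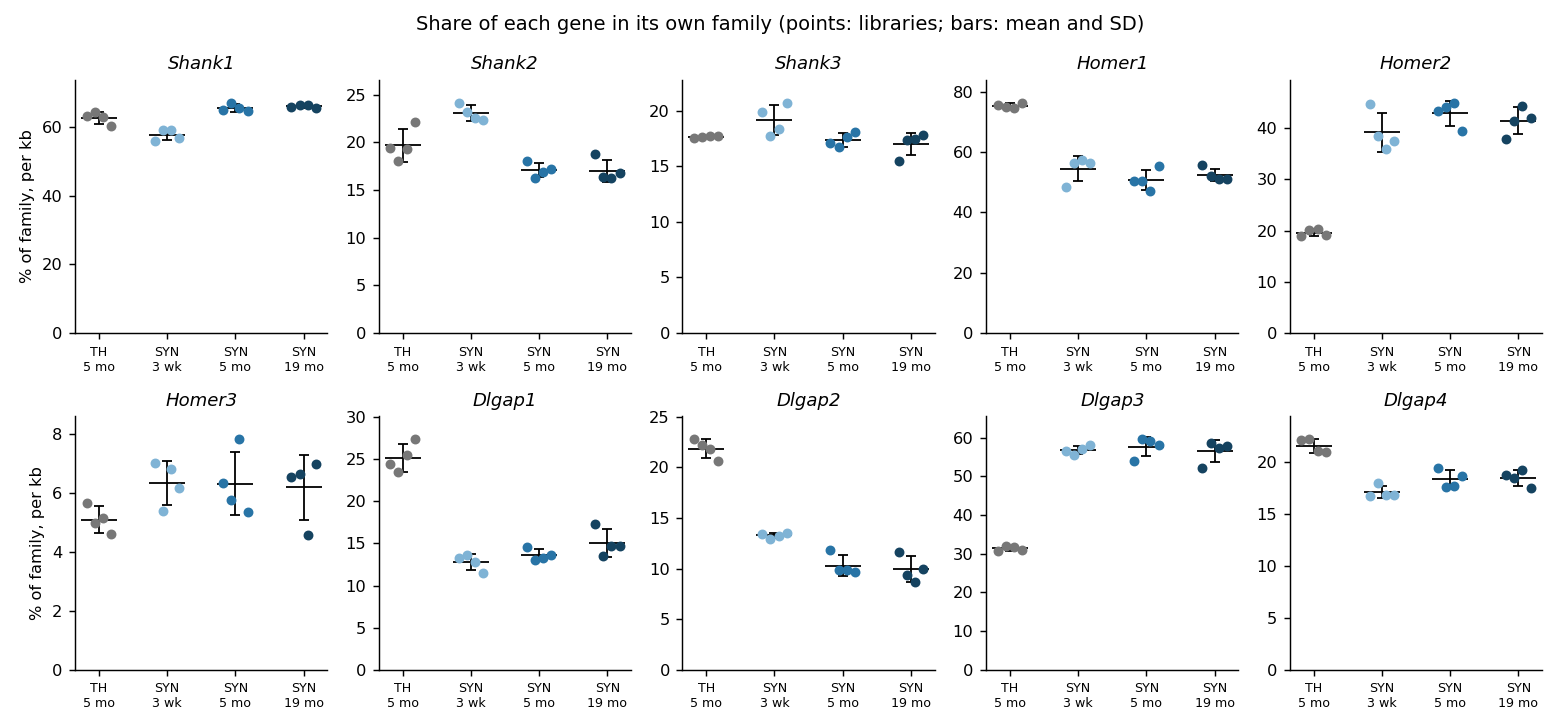
Share of each gene in the summed CPM per kb of its family, in percent (y axis, linear from 0), for the 4 groups (x axis), with points for libraries and bars for mean and SD (n = 4). Homer1 and Homer2 stood at 75.3 and 19.6% in TH and at 50.8 and 42.9% in 5 months SYN, and Dlgap3 at 31.4 and 57.7%.

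Binding partners of the scaffolds, a list of 30 genes, all tested, were called higher in SYN in 19 cases and lower in 3. Of all genes tested, 24.5% were higher and 25.6% lower. The median log2 fold change of the partners was 0.35. Among Homer ligands, 6 of 8 were higher and 1 lower. The metabotropic receptor Grm5 had a log2 fold change of 0.82 ± 0.08 (edgeR adjusted p = 1.05e-06), the endoplasmic calcium channel Itpr1 one of 1.41 ± 0.08 (edgeR adjusted p = 4.66e-09), and the GTPase-activating protein Agap2 one of 1.79 ± 0.10. Ryr1, the ryanodine receptor of skeletal muscle, was lower (log2 -0.66 ± 0.12, edgeR adjusted p = 0.000345). Of the Dlgap partners 4 of 7 were higher, among them Dlg4 (log2 1.178 ± 0.103, edgeR adjusted p = 3.08e-07). Of the Shank partners 6 of 12 were higher and 2 lower: the latrophilin Adgrl1 was highest (log2 1.91 ± 0.08) and Sharpin, at 3.44 to 8.57 CPM in these libraries, lowest (log2 -0.63 ± 0.21, edgeR adjusted p = 0.0238). The number called lower was 7 with DESeq2 size factors, upper-quartile scaling or the DESeq2 Wald test, and 1 without SYN replicate 2, SYN replicate 3 or TH replicate 3.

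Within SYN, the comparison of 5 months with 3 weeks covers maturation from weaning to adulthood. Of the 10 scaffold genes, 5 rose (Shank1, Shank3, Dlgap1, Dlgap3 and Dlgap4) and 0 fell, where 13.3% of the 15344 genes tested rose and 11.3% fell (edgeR adjusted p under 0.05). The median log2 change of the 10 was 0.29 and that of all genes tested 0.00. The same 5 genes had no overlap between ages, and 22.7% of all genes tested had none in either direction. At 6 of the 10 genes, these 5 and Homer2, the unadjusted p was under 0.05, and the share of all genes under that p was not taken. Markers moved between these ages too: 2 of the 3 nuclear RNAs rose (median log2 change of the 3, 1.90), as did 3 of 8 microglial, 3 of 8 neuronal and 3 of 7 tested endothelial markers, while 7 of 8 oligodendrocyte and 2 of 8 astrocyte markers fell. Their part in the scaffold changes was not tested.

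Shank1 changed most. It lay at 1466, 1459, 1441 and 1496 CPM at 3 weeks, a spread of 22.7 CPM (SD), and at 2135 to 2757 CPM at 5 months, an increase of 1.70-fold (log2 0.77 ± 0.10, edgeR adjusted p = 3.22e-06). Shank3 went from 439, 370.3, 377 and 460.4 CPM to 503 to 603 CPM (log2 0.44 ± 0.11, edgeR adjusted p = 0.00546). Shank2, by contrast, lay at 638, 579, 553 and 593 CPM at 3 weeks and overlapped its 5 months range (log2 0.15 ± 0.09, edgeR adjusted p = 0.237). The share of Shank1 in the family went from 57.8% ± 1.57 to 65.5% ± 1.05 and that of Shank2 from 23.1% ± 0.81 to 17.1% ± 0.75, both without overlap (two-sided exact permutation p = 0.0286, adjusted over 40 tests 0.0879).

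Among the Dlgap genes, Dlgap1 lay at 400.0, 387, 359 and 358 CPM at 3 weeks and at 512, 488, 506 and 435 CPM at 5 months (log2 0.39 ± 0.08, edgeR adjusted p = 0.00116). Dlgap4 went from 235 to 261 CPM to 298 to 339 CPM (log2 0.39 ± 0.09, edgeR adjusted p = 0.00152), so both rose by 1.31-fold. Dlgap3 rose by 1.24-fold (log2 0.31 ± 0.10, edgeR adjusted p = 0.0255), from 453, 422, 426 and 483 CPM to at least 495 CPM in each 5 months library. Dlgap2 did not follow: at 147, 133, 135 and 152 CPM it overlapped its 5 months values (log2 -0.08 ± 0.09, edgeR adjusted p = 0.593), and its share of the family went from 13.3% ± 0.27 to 10.3% ± 1.01 (exact permutation p = 0.0286, adjusted 0.0879). The call of Dlgap3 was lost without 3 weeks replicate 2 (adjusted p = 0.0651), 3 weeks replicate 3 (0.0827), 5 months replicate 2 (0.0841) or 5 months replicate 3 (0.0988).

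The Homer genes gave no call between 3 weeks and 5 months. Homer1 lay at 175, 176, 181 and 198 CPM at 3 weeks and overlapped its 5 months range (log2 0.04 ± 0.08, edgeR adjusted p = 0.805). Homer2 had a log2 change of 0.27 ± 0.10 (edgeR adjusted p = 0.0630), with 3 weeks replicate 1 at 194 CPM and the other 3 weeks libraries at 137 to 159 CPM. It was called without 3 weeks replicate 1 (log2 0.38, adjusted p = 0.00191) and without 5 months replicate 4 (log2 0.33, adjusted p = 0.0322). Homer3 stood at 5.49 to 8.32 CPM at 3 weeks (log2 0.13 ± 0.20, edgeR adjusted p = 0.691).

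Among the 30 partners, 5 rose and 9 fell from 3 weeks to 5 months, beside 13.3% and 11.3% of all genes tested. The median log2 change of the partners was -0.03. Itpr1 changed most, from 711 ± 57.3 to 1603 ± 161 CPM (log2 1.19 ± 0.10, edgeR adjusted p = 1.34e-09), followed by the Rap regulator Sipa1l1 (log2 0.71 ± 0.09, edgeR adjusted p = 1.15e-06). Of the 12 Shank partners 5 fell and 1 rose, and 2 of them fell most of the 30: the actin regulator Baiap2, also called IRSp53 (log2 -0.66 ± 0.10, edgeR adjusted p = 2.04e-05), and the exchange factor Arhgef7, also called beta-PIX (log2 -0.55 ± 0.09, edgeR adjusted p = 0.0001). Dlg4 (log2 -0.02 ± 0.09, edgeR adjusted p = 0.911) and Grm5 (log2 0.08 ± 0.10, edgeR adjusted p = 0.620) were not called. The number that fell was 6 without 5 months replicate 4.

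Between 5 months and 19 months, none of the 10 genes was called by edgeR or by the DESeq2 Wald test. The background was also small: 0.13% of the 15344 genes tested rose and 0.169% fell. An unadjusted p under 0.05 was reached by 1 member, Homer1, and the share of all genes under that p was not taken. Homer1 was the only member whose ages did not overlap, against 8.06% of all genes tested. It lay at 176 to 196 CPM at 5 months and at 215, 206, 211 and 215 CPM at 19 months (log2 0.19 ± 0.08, edgeR adjusted p = 0.307). The 9 other changes ran from -0.19 ± 0.09 for Dlgap2 to 0.11 ± 0.20 for Homer3, and the median of the 10 was -0.11. In 19 months SYN replicate 1, the library with the highest share of mitochondrial ribosomal RNA at that age, Shank1 lay at 1843 CPM against 2425 to 2505 CPM in the other 3, Shank3 at 368 against 546 to 557 CPM, and Dlgap3 at 384 against 522 to 546 CPM. Without that library the changes of Shank1, Shank3 and Dlgap3 were -0.01, -0.003 and -0.04. Of the 30 partners 0 were called: Dlg4 changed by -0.11 ± 0.09, Grm5 by 0.08 ± 0.10 and Itpr1 by -0.24 ± 0.10 on the log2 scale, while the DESeq2 Wald test called 2 lower.

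From 3 weeks to 19 months, 4 of the 10 genes rose and 1 fell, where 10.0% of the genes tested rose and 9.44% fell. This comparison shares its 3 weeks libraries with the earlier one and its 19 months libraries with the last. Shank1 rose by 1.58-fold (log2 0.66 ± 0.10, edgeR adjusted p = 2.92e-05), Dlgap1 by 1.31-fold (log2 0.39 ± 0.08, edgeR adjusted p = 0.00125), Homer2 by 1.28-fold (log2 0.35 ± 0.10, edgeR adjusted p = 0.0166) and Dlgap4 by 1.21-fold (log2 0.28 ± 0.09, edgeR adjusted p = 0.0251). Dlgap2 fell by 1.20-fold, from 133 to 152 CPM to 117, 119, 107 and 126 CPM (log2 -0.27 ± 0.09, edgeR adjusted p = 0.0425). Shank3 (log2 0.31 ± 0.11, adjusted p = 0.0568) and Homer1 (log2 0.22 ± 0.08, adjusted p = 0.0564) did not pass the threshold in edgeR. The DESeq2 Wald test called Homer1 (adjusted p = 0.0119), and edgeR called both genes with upper-quartile scaling (0.0378 for Shank3, 0.0344 for Homer1) and with mitochondrial genes removed (0.0487 and 0.0497), Shank3 without a filter on low counts (0.0170), and Homer1 with a filter of 1 CPM (0.0481). Among markers, 4 of 8 microglial and 2 of 8 neuronal ones rose and 7 of 8 oligodendrocyte ones fell, and their part was not tested. No overlap between ages was seen for 4 members, 3 of them higher, and for 22.9% of all genes tested. Within families the shares at 19 months were close to those at 5 months: Shank1 made up 66.0% ± 0.44 and Shank2 17.0% ± 1.17 of the Shank sum, and Dlgap2 9.93% ± 1.29 of the Dlgap sum.

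Several calls of this comparison lay near the threshold and were lost when any of several libraries was left out. Shank1 and Dlgap1 kept their call whichever single library was left out. Dlgap2 was lost without 3 weeks replicates 1, 3 or 4 (adjusted p = 0.0611, 0.0611 and 0.121) and without 19 months replicates 1, 2 or 3 (0.0735, 0.0770 and 0.142). Homer2 was lost without 3 weeks replicates 2 or 3 (0.0515 and 0.0923) and without 19 months replicates 3 or 4 (0.0728 and 0.0628), and Dlgap4 without 3 weeks replicate 3 (0.1001) and 19 months replicates 2, 3 or 4 (0.0970, 0.101 and 0.0615). In the other direction, Shank3 was called without 3 weeks replicate 1 (0.0418), 3 weeks replicate 4 (0.0328) or 19 months replicate 1 (0.00174), Homer1 without 3 weeks replicate 4 (0.0308), and Dlgap3 without 19 months replicate 1 (0.0378). So the number that rose ran from 2 (without 3 weeks replicate 3, or 19 months replicate 3 or 4) to 6. With 5 months replicate 4 and 19 months replicate 1 both left out, a choice made after seeing the data, 6 rose and 0 fell, and 6 rose from 3 weeks to 5 months, with Homer2 added (adjusted p = 0.0274).

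The partners from 3 weeks to 19 months numbered 5 that rose and 10 that fell, beside 10.0% and 9.44% of all genes tested. Itpr1 (log2 0.95 ± 0.10, edgeR adjusted p = 8.82e-08) and Sipa1l1 (log2 0.71 ± 0.09, edgeR adjusted p = 1.34e-06) rose most, and Baiap2 (log2 -0.75 ± 0.10, edgeR adjusted p = 4.48e-06) fell most. Dlg4 (log2 -0.13 ± 0.09) and Grm5 (log2 0.16 ± 0.10) were not called. The number that rose was 3 without 19 months replicate 3 or 4.

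**Figure D3:**
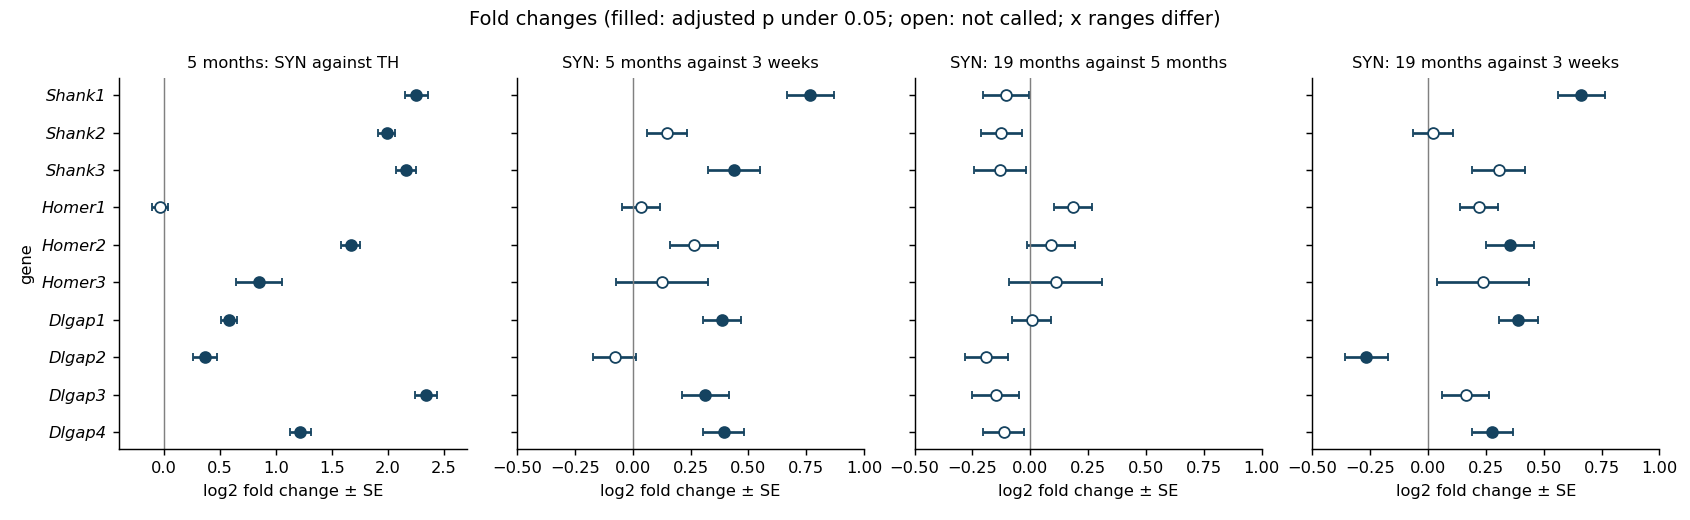
Log2 fold change with its SE (x axis; the range of the first panel differs) for each of the 10 genes (y axis) in the 4 comparisons, with filled points for an edgeR adjusted p under 0.05 and open points for the rest. Filled points number 9 for SYN against TH, 5 for 5 months against 3 weeks, 0 for 19 months against 5 months and 5 for 19 months against 3 weeks.

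Across the 16 libraries, the levels of the members ran in parallel to differing degrees. On log2 CPM, Shank3 and Dlgap3 had a Pearson r of 0.995 and Shank2 and Dlgap3 one of 0.992, while Homer1 reached at most 0.311, with Dlgap1. These r values are descriptions over 16 libraries, and they share the difference between SYN and TH and the scaling of the libraries. Out of 5376 genes averaging 20 CPM or more, the gene most like each member was Samd4b for Shank1 (r = 0.996), Nfic for Shank2 (0.995), Neurl1a for Shank3 (0.997), Sod2 for Homer1 (0.719), Csnk1g2 for Homer2 (0.996) and Dazap2 for Homer3 (0.918). For the Dlgap genes it was Arhgef17 for Dlgap1 (0.980), Gm8806 for Dlgap2 (0.937), Map3k10 for Dlgap3 (0.997) and Iqsec2 for Dlgap4 (0.989).

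Splicing within the members was read from the authors' deposited LeafCutter tables, which group introns that share an end into clusters and give, per age comparison, an adjusted p per cluster and the usage of each intron as its part of the cluster's split reads, with no value per library. The tables hold 22 clusters in 8 of the members and none in Homer1 or Homer3. Shank1 and Dlgap4 have 5 clusters each. From 3 weeks to 5 months, 2 of the 22 clusters were called, against 6.61% of the 4250 clusters tested, and from 3 weeks to 19 months 1 of 22, against 4.81% of 4176. From 5 months to 19 months 0 of 22 were called, against 0.768% of 4037. Unadjusted p was under 0.05 in 6 of the 22 in this comparison and in 6 from 3 weeks to 5 months. From 3 weeks to 19 months it was under 0.05 in 3. The share of all clusters under that p was not taken. All 3 called clusters lie in Shank genes, where Shank1 holds 5 of the 22 clusters, Shank2 3 and Shank3 2. So few calls do not set the Shank genes apart from the other members. The authors' deposited DIEGO tables, which test single junctions, gave q = 1.0 for each junction of the 3 called clusters that they list. Of 185 member junctions they hold 2 with q under 0.05 from 3 weeks to 5 months, against 1.48% of all 94845, and 2 from 3 weeks to 19 months, against 0.69% of 92746. From 5 months to 19 months 0 of 188 had such a q, against 0.0% of 89750. In the authors' deposited tables Dlgap1 holds both of the first pair (chr17:70761075-70766089 and chr17:70821404-70821829, q = 0.0464 each) and 1 of the second (chr17:70761075-70766089, q = 0.0489), and the other is in Shank1 (chr7:44354530-44354630, q = 0.0489). Among the members' exons in GENCODE vM21, none ends just before or starts just after any of these junctions. The left end at chr17:70761075 is the first base after an annotated Dlgap1 intron. The junction chr17:70821404-70821829 runs past the annotated end of Dlgap1 at 70821413.

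The alternative stretches of the called Shank3 and Shank2 clusters are short and lie within coding sequence. A call on its cluster does not by itself mean that inclusion of a stretch changed. They are shown because introns of the called clusters end at their borders. They are read from GENCODE vM21 transcripts (GRCm38, plus strand), 5′ to 3′, with the alternative stretch in capitals and 30 bases of the neighbouring coding sequence on each side in lower case. The shorter exon end that bounds the Shank2 stretch comes from the deposited introns and is not annotated in GENCODE vM21, where the stretch is part of the exon.
Shank3 exon of 24 bases, chr15:89538015-89538038: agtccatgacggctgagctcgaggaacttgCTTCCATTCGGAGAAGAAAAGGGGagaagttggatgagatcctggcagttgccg
Shank2 exon of 21 bases, chr7:144408056-144408076: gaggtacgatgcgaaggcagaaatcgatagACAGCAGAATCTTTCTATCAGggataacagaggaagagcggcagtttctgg
Shank2 stretch of 27 bases between 2 ends of the exon before it, chr7:144407206-144407232: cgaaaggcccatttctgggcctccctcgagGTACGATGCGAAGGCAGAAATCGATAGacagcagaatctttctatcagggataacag
All 3 lengths are multiples of 3.

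In Shank3, the called cluster holds the 2 introns on either side of the 24-base exon and the intron that skips it. In the authors' deposited table, usage of the 4560-base intron into the exon (chr15:89533455-89538014) went from 78.0% at 3 weeks to 84.8% at 5 months, and that of the 5061-base intron out of it (chr15:89538039-89543099) from 21.0% to 14.4% (LeafCutter adjusted p = 0.00754). Usage of the skipping intron of 9645 bases was 0.96 and 0.79%. The 2 flanking introns thus moved in opposite directions, and skipping stayed near 1% of the cluster. From 5 months to 19 months the authors' deposited table gives 84.8% and 78.6% for the first intron, with an adjusted p of 0.294, and from 3 weeks to 19 months 77.7% and 79.0%.

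The called Shank1 cluster lies towards the end of the gene. The authors' deposited table gives 66.7% usage at 3 weeks and 75.4% at 5 months for the annotated intron of 1975 bases (chr7:44354645-44356619), the largest change of the cluster at 8.63 percentage points (LeafCutter adjusted p = 0.00135). Inside that intron, 81 bases (chr7:44356118-44356198) that are no exon in GENCODE vM21 were joined on their left by an intron used at 13.8 and 9.67% and on their right by one used at 18.5 and 14.4%. Both introns that use these bases were lower at 5 months. At 19 months the main intron stood at 71.1%, and neither comparison with 19 months was called (adjusted p = 0.283 and 0.287).

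The called Shank2 cluster joins an exon with 2 ends to the 21-base exon and to the exon after it. From 3 weeks to 19 months, usage of the 1385-base intron after the 21-base exon (chr7:144408077-144409461) fell by 6.96 percentage points, from 35.4 to 28.4%, in the authors' deposited table (LeafCutter adjusted p = 0.0316). In the authors' deposited table for 3 weeks against 5 months this intron already stood at 28.4% at 5 months. The cluster was not called there (LeafCutter adjusted p = 0.1445). The 2256-base intron that skips the 21-base exon from the shorter exon end was used at 4.38% and 9.13%. The 823-base intron from the longer end to the 21-base exon was the main one, at 52.1 and 52.9%. At 5 months it stood at 59.4% in the comparison with 3 weeks. The intron from the shorter end to the 21-base exon was used at 8.21 and 9.60% at 3 weeks and 19 months. In the authors' deposited table for 5 months against 19 months the skipping intron stood at 3.60 and 9.08% with an adjusted p of 0.0754, and that cluster was not called.

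Among the clusters that were not called, a Shank2 cluster just upstream had the largest change in usage of the 22, 21.1 percentage points between 5 months and 19 months, with an adjusted p of 0.0744. It was chosen for mention after its values were seen. In it the authors' deposited table gives 48.7% at 5 months and 27.6% at 19 months for the 194-base intron. A Dlgap4 cluster with 2 alternative introns had an adjusted p of 0.0828 from 3 weeks to 5 months and a change of 5.68 percentage points. The 1 cluster of Homer2 changed by 10.4 percentage points from 3 weeks to 19 months (adjusted p = 0.410).

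**Figure D4:**
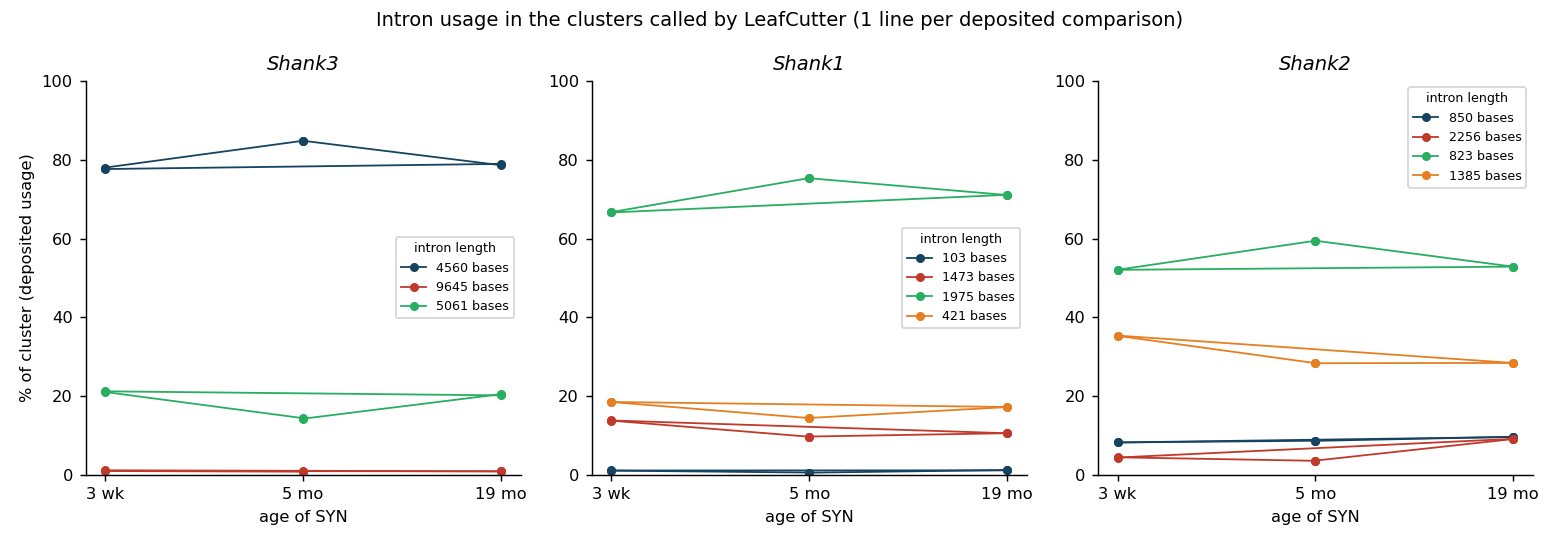
Usage of each intron as a percentage of its cluster (y axis, 0 to 100) at 3 weeks, 5 months and 19 months (x axis) in the 3 clusters of Shank3, Shank1 and Shank2 that LeafCutter called, as deposited by the authors, with 1 line per deposited comparison and colours for introns, named by their length. The 1975-base intron of Shank1 stood at 66.7% at 3 weeks and 75.4% at 5 months, and the 4560-base intron of Shank3 at 78.0 and 84.8%.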

How the data were processed

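Counts per gene for 48709 genes in 16 libraries are the authors' deposited whole-number counts. The submitters' processing notes name, without their order, Trimmomatic 0.38, cutadapt 1.18, bcl2fastq 2.20.0.422, Subread's featureCounts and the build GRCm38.p6. Aligner, strand setting and annotation version: not given in the sources used here. In the LeafCutter tables that the authors deposited, each cluster has a p-value, raw and adjusted, and each intron has for each age 1 fraction of usage, printed here in percent. The authors deposited 3 score values as well: the change in usage, later minus earlier age, printed in percentage points, and LeafCutter's log effect size and DIEGO's abundance change, neither used. For each junction the authors deposited a DIEGO p-value and q-value. An intron of LeafCutter was read as the bases strictly between its deposited ends, since 9616 of 12200 then match introns of GENCODE vM21 (3 weeks to 5 months) and 0 as deposited.

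Genes were filtered with filterByExpr, TMM-scaled, and fitted in R 4.3.3 with the robust quasi-likelihood test of edgeR 4.0.16 over all genes, on 8 libraries for SYN against TH and on the 12 SYN libraries for ages, with a Benjamini-Hochberg adjusted p under 0.05 as the call. The tests were checked on simulated counts. CPM in the text use TMM over all 16 libraries. Log2 CPM had a prior count of 2. Shares were compared with exact permutation tests in scipy 1.17.1. A symbol on more than 1 row (Dlg2) was taken from the row whose gene ID GENCODE pairs with it.

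Members and lists were chosen with earlier results of these data known. Named partners were the 2 called genes with the largest and the 2 with the smallest log2 fold change per comparison, plus Dlg4, Grm5 and Itpr1. A partner that this rule names from 3 weeks to 19 months is not reported here. Alternatives were DESeq2 1.42.0 size factors and its Wald test, upper-quartile scaling, mitochondrial genes removed, 2 other filters, other sets of libraries, a replicate block and each library left out. Leaving out both libraries that stand apart (5 months SYN replicate 4 and 19 months SYN replicate 1) was chosen after seeing the data. The smallest chi-square per degree of freedom between 2 libraries was 4.6, so no 2 were copies. The count columns of 5 months SYN and TH carry matching library numbers, per the file headers, but no label says whether both came from the same preparation, so the tests have no replicate block.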

Additional observations from a re-analysis of the deposited data

Results flagged for a closer look

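Of 80 sets of 4 libraries examined (level and family share of each gene in each group), 7 held a library that lay far from the other 3, by Dixon's criterion, which chance meets in about 1 set in 20. In 19 months SYN replicate 1, 4 genes were low: Shank1 at 1843 CPM with the next library at 2425, Shank2 at 529.9 with the next at 612, Shank3 at 368 with the next at 546, and Dlgap3 at 384 with the next at 522. That library also had 52.3% mitochondrial ribosomal RNA, beside 32.9 to 33.6% in the other 3, and its part in these levels was not tested. The share of Homer1 in its family was low in 3 weeks SYN replicate 1, at 48.3% with the next library at 56.2%. The share of Dlgap2 was high in 5 months SYN replicate 1, at 11.8% with the next at 9.85%, and that of Dlgap4 was high in 3 weeks SYN replicate 2, at 18.0% with the next at 16.9%.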

How the results depend on the processing

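Of 670 fold changes of single members under the alternatives, 620 kept their direction and their side of the threshold, 22 gained a call, 21 lost one and 7 changed sign, all 7 of them near 0 and uncalled. Dlgap1 between 5 and 19 months ran from -0.042 (without 5 months replicate 4) to 0.035 with single libraries left out, and was -0.004 and -0.015 without 19 months replicates 3 and 4 and -0.023 with both libraries that stand apart left out. Shank2 from 3 weeks to 19 months ran from -0.01 (without 3 weeks replicate 3) to 0.08 and was -0.006 without 19 months replicate 4, and Homer3 from 3 weeks to 5 months ran from -0.006 (without 5 months replicate 3) to 0.223. Of 360 share differences 2 were counted as changing sign, both of Dlgap4 with counts not divided by length. They were 1.22 for SYN against TH and -0.36 for 19 against 5 months. With a library left out, a change of sign was counted only where the main exact permutation p was under 0.05. Sign changes of the remaining share differences, some of them near 0, were not counted. With upper-quartile scaling 1 member was called lower in SYN than TH in place of 0. The 1 member lower at 19 months than at 3 weeks became 0 with upper-quartile scaling and with both libraries left out, and 0 to 1 with single libraries left out, while the number higher ran from 2 to 6. Partners called lower in SYN than TH numbered 7 with DESeq2 size factors, upper-quartile scaling or the DESeq2 Wald test and 1 to 4 with single libraries left out. Partners lower at 19 than at 5 months numbered 2 with the DESeq2 Wald test and 1 with only the 8 libraries compared. Partners higher at 19 months than at 3 weeks ran from 3 to 6 with single libraries left out. With a usage change of at least 0.1 required, 0 member clusters were called from 3 weeks to 5 months and 0 from 3 weeks to 19 months, and 0 in the latter at an adjusted p under 0.01.

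With the replicate number as a block, 9 members were higher in SYN than TH, 6 at 5 months than 3 weeks (Homer2 added, log2 0.27, adjusted p = 0.0418), 0 at 19 than 5 months, and 6 higher and 1 lower at 19 months than 3 weeks (Shank3 and Homer1 added). Between ages, no label ties libraries of the same replicate number, so there the block grouped them by number alone. Same-numbered SYN and TH libraries correlated at 0.0884, 0.02, 0.0176 and 0.144 in replicates 1 to 4 after group means were removed. Different-numbered SYN and TH libraries correlated at -0.0942 to 0.0755. The column names of the same-numbered pairs carry matching library numbers, and these correlations do not settle whether the pairs share a preparation. The block changed no member call between SYN and TH. Depth limited Homer3 most, with 67 to 124 counts per library.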
